A study of Citrus maxima and Citrus sinensis with 12 samples.

Results

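The miR164 family was described in root tips of 2 citrus species grown with adequate or excess boron. Members were the entries of the deposited expression table whose homology name in the table of identified miRNAs carries the miR164 family number. This gave 3 of 172 entries (1 entry per miRNA locus), and these hold 2 of the 126 distinct mature sequences. The guide sequence named after ath-miR164a stood at 2 loci, and a 3p sequence named after ath-miR164b-3p stood at 1 locus. C. grandis (recorded as Citrus maxima) and C. sinensis seedlings in sand culture, aged 11 weeks at the outset, received nutrient solution with either 10 µM H3BO3 (boric acid, the control level) or 400 µM H3BO3 (the toxic level) over 15 weeks. Small RNA was sequenced in 12 libraries, 3 for each species at each level. Per the labels, a library was made from mixed RNA of 5 replicates; nothing in the labels says that the 3 libraries of a group came from separate plants, so p-values measure only the spread between these libraries, which may be technical. The tables hold miRNA counts and no messenger RNA, so the label of root tips was not checked against tissue markers, and fewer cells of a type cannot be told apart from less RNA per cell.

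miR164 is an ancient plant miRNA that pairs with transcripts of a group of NAC transcription factors and directs their cleavage. In Arabidopsis these include CUC1 and CUC2, which set the boundaries between organs, NAC1, which carries an auxin signal in lateral root formation, and ORE1, which promotes leaf senescence. A miRNA is cut from a hairpin as a duplex of a 5p and a 3p strand; the guide strand is kept in the silencing complex, and the other strand is usually degraded. For miR164 the guide is the 5p strand. The authors' deposited target table has 39 pairs of a miRNA and a predicted target gene, of which 0 are for miR164 and 0 have a NAC annotation, so the link to NAC factors is background here.

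The strands of the miR164a hairpin are shown because the values of the guide stand for 1 of them. Both are 21 nt and are written 5′ to 3′ from the deposited table, with bases 2 to 8 (the seed) in capitals:
miR164a guide: uGGAGAAGcagggcacgugca
Opposite strand of the miR164a hairpin: cACGCGCUccccuucuccaac
The opposite strand has no entry of its own in the expression table (0 entries). Laid as a duplex with 2-nt overhangs at both 3′ ends, the miR164a strands formed 15 Watson-Crick pairs and 1 G-U pair over 19 positions. Of the 124 sequences listed that are no member, 0 share the seed of the guide, and the closest is miR156 at an edit distance of 9. The guide has a GC content of 61.9%, against a median of 45.8% over the distinct sequences. The other member, miR164b-3p, is by its name the 3p strand of a different hairpin.

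The guide was assigned to scaffold 5, plus strand, in a hairpin window from 33408130 to 33408379, and to scaffold 3, minus strand, from 45856204 to 45856453. Each window spans 250 nt. These are coordinates of the deposited table, whose build is not given in the sources used here; gene annotation was not used here. No other miRNA entry lay close to the guide's loci: the nearest windows were 311 kb from the scaffold 5 locus and 723 kb from the scaffold 3 locus. The loci of the guide had nearly the same counts in each library, with scaffold 5 between 2 counts lower and 6 counts higher than scaffold 3. They are therefore 1 measurement, given here by the scaffold 5 locus.

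The depth was 479090 to 1062488 counts a library (282153 to 577152 if each sequence enters once). Of the 172 entries 170, all 3 miR164 entries among them, passed the filter on low counts. Levels are given in CPM, counts scaled to the library size after trimmed-mean correction; the members have the same length. How evenly the library preparation recovers sequences of different composition was not tested, so a difference in CPM between members is one of reads recovered. Both species were counted on the same entries. Whether reads of both species were assigned to them equally well was not tested, so a species difference is one of reads assigned.

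The guide was a moderately abundant miRNA with a narrow range. In C. grandis at 10 µM it stood at 422, 512 and 497 CPM (338, 515 and 398 counts) in replicates 1, 2 and 3. At 400 µM it stood at 622, 433 and 560 CPM (555, 278 and 383 counts). In C. sinensis it stood at 373, 336 and 310 CPM (175, 269 and 163 counts) at 10 µM and at 346, 376 and 458 CPM (218, 328 and 402 counts) at 400 µM. The boron levels overlapped in both species, whereas at 10 µM all C. grandis libraries lay above all C. sinensis libraries. Over all entries, groups did not overlap for 13.5% (boron in C. grandis), 10% (boron in C. sinensis), 47.1% (species at 10 µM) and 48.2% (species at 400 µM). At 400 µM the species overlapped, since C. grandis replicate 2 lay below C. sinensis replicate 3.

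In order of the mean, the guide was at 538 ± 96.4 CPM in C. grandis at 400 µM, 477 ± 48.3 in C. grandis at 10 µM, 393.1 ± 57.9 in C. sinensis at 400 µM and 340 ± 31.4 in C. sinensis at 10 µM (SD, n = 3 each). Each pair of neighbours in this order overlapped in its libraries. Among 124 tested sequences it ranked 50th to 63rd by mean CPM in the 4 groups. The second locus, on scaffold 3, gave the same order, from 537 ± 98.9 to 334 ± 26.8 CPM (SD, n = 3).

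miR164b-3p, of the strand that is usually degraded, was far more variable. In C. grandis at 10 µM it stood at 61.1, 140 and 921 CPM (49, 141 and 738 counts) in replicates 1, 2 and 3. At 400 µM it stood at 26.9, 218 and 65.8 CPM (24, 140 and 45 counts). In C. sinensis it stood at 38.4, 23.8 and 13.3 CPM (18, 19 and 7 counts) at 10 µM and at 27.0, 36.7 and 31.9 CPM (17, 32 and 28 counts) at 400 µM. A single library, C. grandis 10 µM replicate 3, held the highest value, and the boron levels overlapped in both species. At 10 µM the C. grandis libraries lay above all C. sinensis libraries, and at 400 µM the species overlapped.

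The exact 95% counting interval was 2.81 to 14.4 for the lowest count (7) and 686 to 793 for the highest (738); such intervals cover counting error only. Group means were 374 ± 475 CPM in C. grandis at 10 µM, 104 ± 101 in C. grandis at 400 µM, 31.8 ± 4.86 in C. sinensis at 400 µM and 25.2 ± 12.6 in C. sinensis at 10 µM (SD, n = 3 each). The medians of the C. grandis groups, 140 and 65.8 CPM, were closer than their means. In the guide the same library, C. grandis 10 µM replicate 3, lay inside the range of its group.

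**Figure D1:**
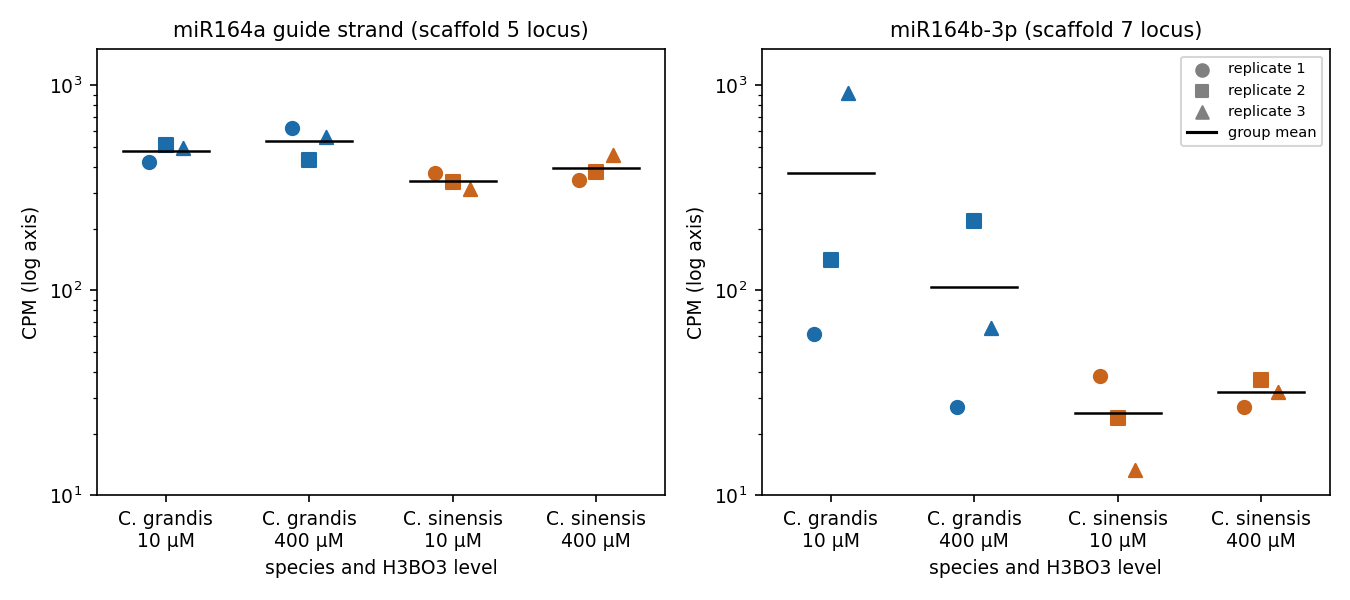
CPM on a log axis for the miR164a guide (left) and miR164b-3p (right) in 12 libraries, by species and H3BO3 level; symbols are replicates and lines are group means (n = 3). The guide stays between 310 and 622 CPM, while miR164b-3p runs from 13.3 to 921 CPM, with 1 C. grandis control library far above the others.

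The first comparison asked whether 15 weeks of excess boron altered miR164 in C. grandis. 0 of the 3 entries passed the test (edgeR's quasi-likelihood test over all 170 entries, Benjamini-Hochberg adjusted p under 0.05), where 1.18% of all entries did. The guide differed by +0.18 on the log2 scale (SE 0.19, 95% interval −0.24 to 0.60, adjusted p = 0.740), with a median of +0.070 over all entries. Its sign depended on the scaling, with −0.076 under total-count scaling, which put the median of all entries at −0.17. Relative to that median the guide was at +0.11 in the first and +0.092 in the second case.

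miR164b-3p differed by −1.86 (SE 0.87, 95% interval −3.74 to 0.013, adjusted p = 0.273). Without C. grandis 10 µM replicate 3 the difference was +0.018 (95% interval −1.47 to 1.51), and without 400 µM replicate 2 it was −3.03 (adjusted p = 0.0769). The authors' deposited table of boron-responsive miRNAs lists miR164b-3p for C. grandis as down, with a log2 fold change of −1.89, a p-value of 0.320 and a false discovery rate of 0.995. Of the 37 entries that table gives for C. grandis, it is the 1 miR164 entry, and 0 of its 11 entries for C. sinensis are miR164. The expression table has 172 entries. A false discovery rate under 0.05 was given for 0 of the 37 and for 2 of the 11.

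In C. sinensis 0 of the 3 entries passed, where 0% of all entries did (edgeR called 0 with 3 at unadjusted p under 0.05, and DESeq2 called 0 with 4). The guide differed by +0.21 (SE 0.20, 95% interval −0.21 to 0.64, adjusted p = 0.887), and relative to the median of all entries it was also at +0.21. The value was +0.12 with the 6 C. sinensis libraries fitted alone, +0.35 without 10 µM replicate 1 and +0.32 without 400 µM replicate 1, with adjusted p from 0.592 to 0.982. Its highest library was at 400 µM and its lowest at 10 µM, but 400 µM replicate 1 lay below 10 µM replicate 1. miR164b-3p differed by +0.36 (SE 1.00, 95% interval −1.81 to 2.54, adjusted p = 0.955). With 1 library left out in turn it ran from +0.073 to +0.81.

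Whether boron acted differently on miR164 in the 2 species was tested as the C. grandis effect minus the C. sinensis effect. 0 of the 3 entries passed, where 0% of all entries did; edgeR called 0 with 9 at unadjusted p under 0.05, DESeq2 called 2 with 8, and the fit with the replicate block called 2. The difference was −0.036 for the guide (SE 0.28, 95% interval −0.63 to 0.56, adjusted p = 0.987). It was −2.23 for miR164b-3p (SE 1.32, 95% interval −5.09 to 0.63, adjusted p = 0.841), and −0.34 without C. grandis 10 µM replicate 3. Averaged over both species, a comparison added after the data were seen, the boron difference was +0.19 for the guide (95% interval −0.11 to 0.49, adjusted p = 0.453). It was +0.046 with no filter, +0.047 with a filter on mean CPM, +0.052 under total-count scaling, and +0.11 and +0.12 without C. sinensis 400 µM replicate 3 and C. grandis 10 µM replicate 1. For miR164b-3p it was −0.75 (95% interval −2.19 to 0.68, adjusted p = 0.528), with 0.588% of all entries called. Without C. grandis 10 µM replicate 3 the averaged difference of miR164b-3p was +0.19.

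**Figure D2:**
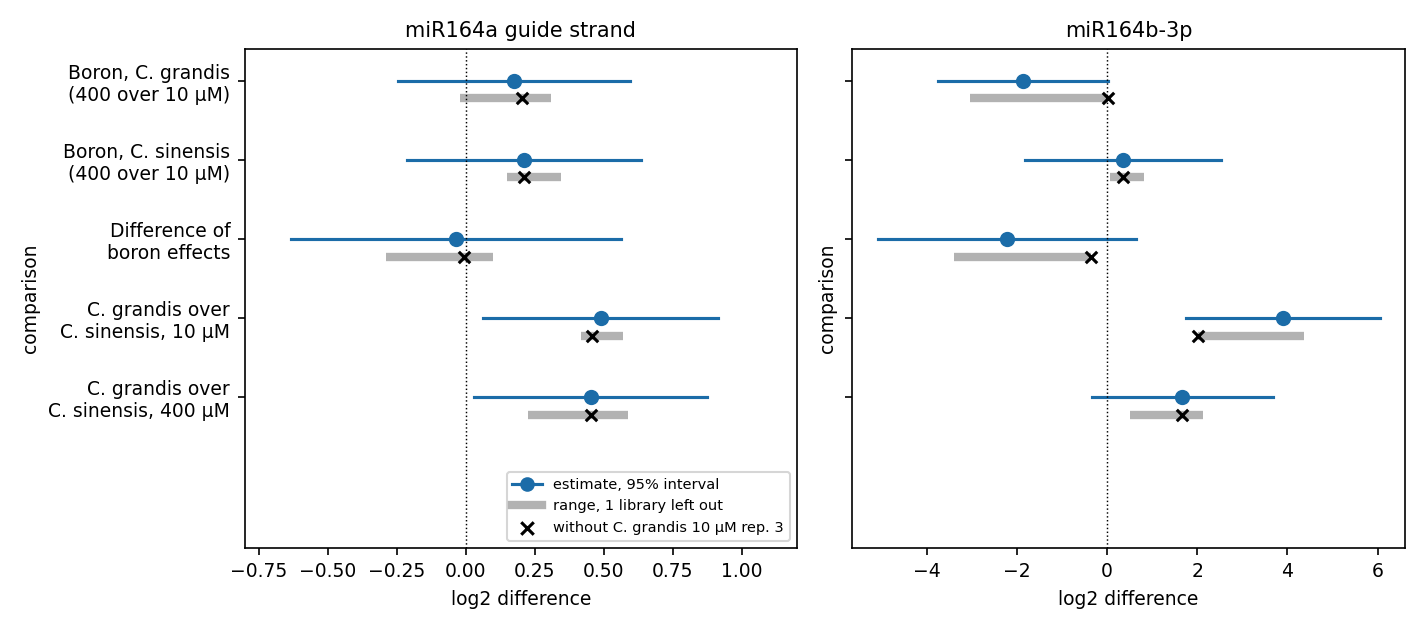
Log2 differences of the miR164a guide (left) and miR164b-3p (right, wider axis) in 5 comparisons, with 95% intervals from edgeR in blue; grey bars span the values with 1 library left out, and crosses leave out C. grandis 10 µM replicate 3. The boron intervals of the guide all include 0, and for miR164b-3p the crosses sit at the end of the grey bar in the comparisons that use that library.

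The species comparison at 10 µM called 1 of the 3 entries, miR164b-3p, where 28.2% of all entries were called (16.5% higher and 11.8% lower in C. grandis). miR164b-3p was higher in C. grandis by 3.90 on the log2 scale (SE 0.99, 95% interval 1.76 to 6.04, adjusted p = 0.0131), in 3 of 3 libraries above all C. sinensis libraries. Such a separation of groups was found for 47.1% of all entries, in either direction. Without C. grandis 10 µM replicate 3 the difference was 2.02 (95% interval 0.41 to 3.62, adjusted p = 0.0573). The guide was higher in C. grandis by 0.49 (SE 0.20, 95% interval 0.064 to 0.91, adjusted p = 0.0777), which did not pass. It passed under total-count scaling, at 0.65 (adjusted p = 0.0220), where the median of all entries moved from +0.10 to +0.27; relative to the median it was at +0.39 and +0.38. It was +0.36 under median-of-ratios scaling (adjusted p = 0.217) and with DESeq2 (adjusted p = 0.250).

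At 400 µM 0 of the 3 entries passed, where 28.8% of all entries did. The guide was at +0.45 (SE 0.19, 95% interval 0.031 to 0.87, adjusted p = 0.0884) and miR164b-3p at +1.67 (SE 0.92, 95% interval −0.32 to 3.67, adjusted p = 0.174) in C. grandis against C. sinensis. The guide was at +0.17 with no filter (adjusted p = 0.540) and with a filter on mean CPM (adjusted p = 0.524), +0.28 under median-of-ratios scaling, with DESeq2 and with the 6 libraries fitted alone, and +0.23 without C. sinensis 400 µM replicate 1. It was also +0.28 without any 1 of C. grandis 10 µM replicates 1 and 2 and C. sinensis 10 µM replicates 1 and 2. Without C. grandis 400 µM replicate 2, the library with the lowest guide and the highest miR164b-3p of its group, the guide was at +0.59 (adjusted p = 0.0313) and miR164b-3p at +0.51 (adjusted p = 0.677).

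Averaged over both boron levels, again a comparison added after the data were seen, the guide was higher in C. grandis by 0.47 (SE 0.14, 95% interval 0.17 to 0.77, adjusted p = 0.0142). miR164b-3p was higher by 2.79 (SE 0.67, 95% interval 1.33 to 4.25, adjusted p = 0.00567), and by 1.84 (adjusted p = 0.0106) without C. grandis 10 µM replicate 3. Here 54.7% of all entries were called, with 56 of the 170 higher and 37 lower in C. grandis. All 3 miR164 entries, which are 2 sequences, were among those called higher. The call of the guide was lost under median-of-ratios scaling, with DESeq2, with no filter, with a filter on mean CPM and without any of 4 single libraries (C. grandis 10 µM replicate 2, C. sinensis 400 µM replicate 1, and C. sinensis 10 µM replicates 1 and 2). In these settings it was at +0.28 to +0.43, with adjusted p from 0.0521 to 0.107.

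The amount of miR164b-3p relative to the guide does not depend on library scaling, although the strands come from different hairpins. In C. grandis there were 14.5, 27.4 and 185 counts of miR164b-3p per 100 counts of the guide at 10 µM and 4.32, 50.4 and 11.7 at 400 µM, in replicates 1, 2 and 3. In C. sinensis there were 10.3, 7.06 and 4.29 at 10 µM and 7.80, 9.76 and 6.97 at 400 µM. In 11 of the 12 libraries the guide had more counts than miR164b-3p, the exception being C. grandis 10 µM replicate 3. The C. sinensis libraries stayed within 4.29 to 10.3, and the lowest C. grandis library, at 4.32, lay inside that range.

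On the log2 scale, with 0.5 added to each count, the ratio averaged −1.25 ± 1.91 and −2.86 ± 1.77 in C. grandis at 10 and 400 µM and −3.83 ± 0.60 and −3.60 ± 0.24 in C. sinensis (SD, n = 3 each). The ratio differed between 400 and 10 µM by −1.61 in C. grandis and +0.23 in C. sinensis. The signs were opposite, but whether the boron difference of the ratio depends on species was not tested. Averaged over species the boron levels differed by −0.69, which did not pass (two-sided exact permutation test within species, 400 arrangements, p = 0.440, adjusted p = 0.440 over 2 tests). Without C. grandis 10 µM replicate 3 it was −0.15, and without C. grandis 400 µM replicate 2 it was −1.16. The species differed by 1.66 within boron levels, with a higher ratio in C. grandis (exact permutation p = 0.0600, adjusted p = 0.120), which did not pass either; the smallest p this design allows is 0.005. With 1 library left out in turn the species difference ran from 1.13 to 2.07, with adjusted permutation p from 0.01 to 0.28. The highest value, 2.07, came without C. grandis 400 µM replicate 1, the C. grandis library with the lowest ratio. There the exact permutation p was 0.005, the smallest the permutations can give (adjusted p = 0.01).

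**Figure D3:**
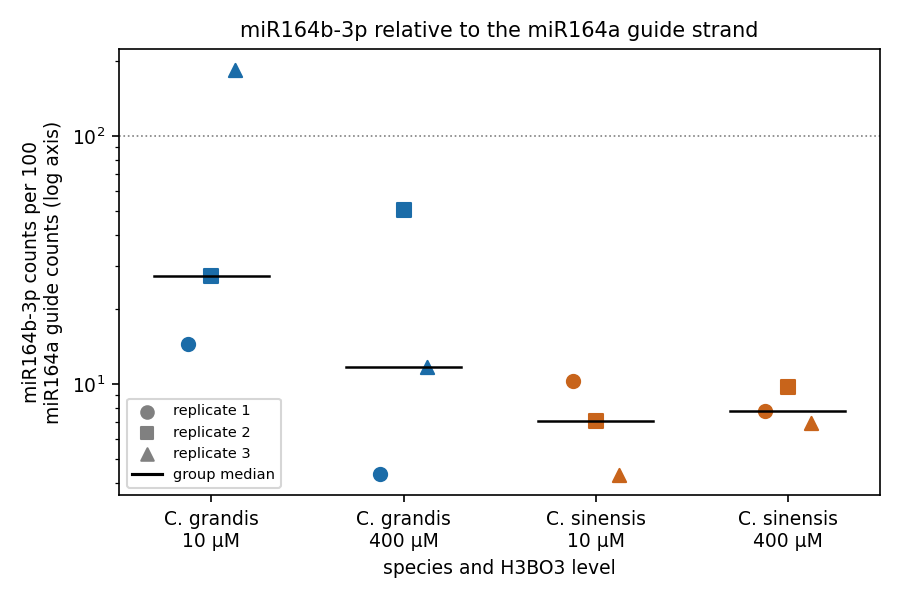
Counts of miR164b-3p per 100 counts of the miR164a guide in each library (log axis), by species and H3BO3 level; symbols are replicates, lines are group medians (n = 3), and the dotted line marks equal counts. The 6 C. sinensis libraries sit between 4.29 and 10.3, the 6 C. grandis libraries between 4.32 and 185.

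The strands also differed in how far replicate libraries lay apart. For the guide the SD of log2 CPM within a group was 0.15, 0.27, 0.13 and 0.21 in C. grandis at 10 and 400 µM and in C. sinensis at 10 and 400 µM. The medians over all 170 entries were 0.32, 0.36, 0.23 and 0.25, so the guide lay below the median spread in each group. For miR164b-3p the SD was 1.98 and 1.46 in C. grandis and 0.68 and 0.20 in C. sinensis. These ranked 2nd, 6th, 7th and 95th from the largest among the 170 entries. The ranks take no account of level, and the mean log2 CPM was 5.93 for miR164b-3p against 8.75 for the guide. In C. sinensis at 10 µM the SD of miR164b-3p rests on 18, 19 and 7 counts, so it includes sizeable counting error. The coefficient of variation that the fit gave to each entry was 19.0% for the guide and 70.7% for miR164b-3p, against 28.1% in common.

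**Figure D4:**
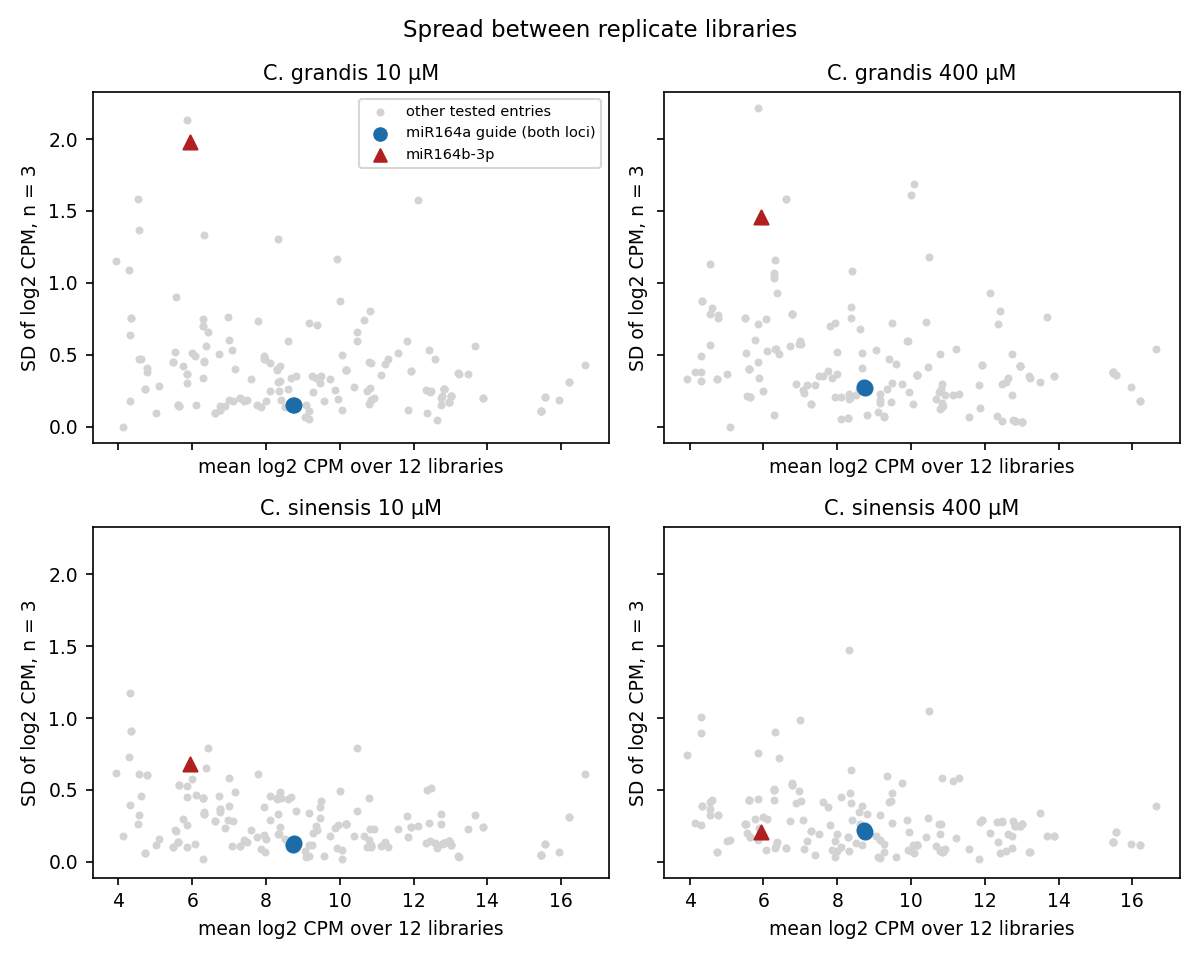
SD of log2 CPM between the 3 replicate libraries against the mean log2 CPM over 12 libraries for the 170 tested entries, with 1 panel for each group. Both guide loci (blue circles, nearly superimposed) lie below the median spread of each panel, though only just in C. sinensis at 400 µM; miR164b-3p (red triangles) ranks 2nd and 6th from the top in C. grandis and, at 95th, lies beside the guide in C. sinensis at 400 µM.

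Families that act beside miR164 in auxin-dependent root growth were set beside it. miR160 (3 entries) and miR167 (4 entries) act on auxin response factors, and miR390 (2 entries of 1 sequence) triggers the small RNAs that silence other auxin response factors. miR393, which acts on auxin receptors, was also on the list but had 0 entries. The 9 entries, all tested, hold 7 sequences. 0 passed in either boron comparison. In C. grandis 6 of 9 were higher at 400 µM (median +0.21), where 55.9% of all entries were (median +0.070). Under total-count scaling 4 of 9 were higher there (median −0.0093), where 60 of the 170 entries were (median −0.17). In C. sinensis 6 of 9 were higher (median +0.14), where 50% of all entries were (median −0.00063). In the species comparison at 10 µM 2 entries were called lower in C. grandis, where 11.8% of all entries were, and 0 higher. Both are loci of 1 sequence, miR390a-5p, at −0.76 (adjusted p = 0.0401). At 400 µM 4 entries with 3 sequences were called higher, where 20.6% of all entries were, with miR167a-5p at +0.77 (adjusted p = 0.0149) and miR167h at +0.65 (adjusted p = 0.0196). The 2 entries called lower, where 8.24% of all entries were, were again the loci of miR390a-5p, at −1.11 (adjusted p = 0.00681).

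The miR319 family acts on TCP factors, some of which activate a MIR164 gene in Arabidopsis. Its 7 entries, with 6 sequences, had 0 calls in either boron comparison. 1 of the 7, miR319a-5p, is by its name a 5p strand and was counted with the others, so the strands were not set apart here. In both species 7 of 7 were higher at 400 µM, where 55.9% (C. grandis) and 50% (C. sinensis) of all entries were. The medians were +0.36 and +0.26, and none passed the test. It was also 7 of 7 in both species under median-of-ratios and total-count scaling. Of the 170 entries, 85 (C. grandis) and 76 (C. sinensis) were higher under median-of-ratios scaling, and 60 and 76 under total-count scaling. Between species the miR319 entries went both ways. At 10 µM 1 of 7 was higher in C. grandis, with a median of −0.60 and a range of −0.93 to +1.03. At 400 µM 3 of 7 were higher, with a median of −0.54 and a range of −0.92 to +0.99. At 10 µM 2 miR319 entries were called lower in C. grandis, miR319g at −0.71 (adjusted p = 0.0401) and 1 ath-miR319a locus at −0.93 (adjusted p = 0.0454). At 400 µM 1 was, the same ath-miR319a locus, at −0.92 (adjusted p = 0.0454). Of all entries, 11.8% at 10 µM and 8.24% at 400 µM were called lower in C. grandis. Averaged over boron levels, the comparison added later, 4 of the 7 miR319 entries, with 3 sequences, were called lower and 0 higher. There 37 of the 170 entries were called lower. Whether the miR319 counts differ from these shares was not tested. These lists and the miR164 values come from the same libraries.

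Among the 122 other tested sequences, those whose log2 CPM followed the guide most closely over the 12 libraries were miR395a (Pearson r = 0.88), miR160a-5p of scaffold 2 (0.87), miR156 (0.87), miR162a-3p (0.87) and miR157 (0.84). After the group means were subtracted the same 5 had r of 0.71, 0.59, 0.81, 0.53 and 0.58. The points share libraries and scaling, so these values describe likeness of level only. For miR164b-3p, a choice made after the data were seen, the 5 closest had r of 0.74 to 0.79 and included miR5014a-3p (0.79), a second miR160a-5p locus, on scaffold 6 (0.77), and ccl-miR396 (0.75). After the group means were subtracted these 3 had r of 0.46, 0.72 and 0.75, and the other two 0.50 and 0.47.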

How the data were processed

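Root-tip small RNA libraries (TruSeq kit, single-end HiSeq reads, per the labels' protocols) were made by the authors; for trimming, alignment, miRNA calling and build, tools are not given in the sources used here. DESeq is named per the submitters' processing notes, with no version. The deposited expression table holds raw counts per locus, not normalised by the authors, and loci with the same sequence repeat the same reads. The authors' deposited table of boron-responsive miRNAs gives log2 fold changes with p-values and false discovery rates, used for 1 entry. Positions and sequences came from the deposited list of identified miRNAs, whose hairpin score was not used; the deposited target table was searched for miR164. The sequence and position of miR164b-3p are not reported here.

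Counts were fitted with edgeR 4.0.16 (R 4.3.3): trimmed-mean scaling, filterByExpr at a count minimum of 10, and 1 quasi-likelihood fit of the 4 group means to all 12 libraries. The 5 comparisons were two-sided, adjusted by Benjamini-Hochberg over 170 entries; 2 averaged comparisons were added after the data were seen. SE is the absolute log2 change over the root of F. Log2 CPM used a prior count of 2. The strand ratio was compared with exact permutation tests over samples, adjusted over 2 tests. Alternatives were other scalings, DESeq2 1.42.0, other filters, 1 entry per sequence, 6 libraries only, the replicate block, other pseudocounts and each library left out. The procedures were also run on simulated data. Those values were drawn independently, without loci that share reads, so they do not cover that feature of these counts. No 2 replicate libraries agreed within sampling noise. In C. sinensis the deviations of same-numbered libraries of 10 and 400 µM correlated at 0.40, 0.24 and 0.22. Unlike-numbered ones there ran from −0.41 to 0.20. In C. grandis same-numbered libraries gave −0.12, −0.23 and 0.20, and unlike-numbered ones −0.31 to 0.50. Across species same-numbered libraries ran from −0.15 to 0.30. The labels give no meaning for the numbers, so pairing was not established. The main fit had no block. The replicate block, kept as an alternative, was fitted in both species, and within boron level for the species comparisons. Members, companion lists and the naming rule (all members, called members of 2 companion lists, the 5 sequences most like the guide) were chosen with earlier results of these data known.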

Additional observations from a re-analysis of the deposited data

How the results depend on the processing

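Of 439 values recomputed under an alternative, 372 kept their direction and side of the threshold (counts: stayed within 1.5 times). The 439 include fits without a library from outside the comparison. A value that passed in neither fit and kept its sign counts among the 372. The guide's boron difference in C. grandis became −0.076 (scaffold 3 locus −0.072) by total counts, −0.065 (−0.063) without a filter and −0.065 (−0.062) at a mean CPM of at least 10. With 1 library left out it ran from −0.019 (−0.015) to +0.31 (+0.32), and the difference of boron effects from −0.29 to +0.098 (+0.096). miR164b-3p ran from −3.03 to +0.018 in C. grandis, from 2.02 to 4.38 between species at 10 µM, and from −1.33 to +0.19 averaged over species. The guide between species ran from +0.42 to +0.57 at 10 µM (0.65 under total-count scaling, +0.36 under median-of-ratios scaling and with DESeq2) and from +0.23 to +0.59 at 400 µM (+0.17 with no filter and with the CPM filter). Averaged over levels it ran from +0.35 to +0.54, and was +0.32 under median-of-ratios scaling and with DESeq2 and +0.28 with no filter and with the CPM filter. The species difference of the strand ratio ran from 1.13 to 2.07 and its boron difference from −1.16 to −0.15. The causes were not tested.

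Counts of called entries moved as follows. In C. grandis 2 were called, 4 under median-of-ratios and under total-count scaling, 5 with DESeq2, 0 with only the 6 libraries and 0 to 15 with 1 library left out. In the difference of boron effects 0 were called, 1 under median-of-ratios scaling, with the CPM filter and with 1 entry per sequence, and 2 under total-count scaling, with DESeq2, with no filter and with the replicate block (0 to 2 with 1 library left out). Averaged over species 1 was called, 6 with DESeq2 and 2 under total-count scaling, with no filter, with the CPM filter and with the replicate block (0 to 5). Between species 25 to 54 were called at 10 µM and 25 to 59 at 400 µM with 1 library left out (28 at 400 µM with 1 entry per sequence); averaged over levels 93 were called, 62 to 91 with 1 library left out and 55 with 1 entry per sequence. The replicate block changed no call of a miR164 entry (guide in C. grandis +0.16, miR164b-3p between species at 10 µM 2.99, adjusted p = 0.0207).

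miR164b-3p rested on 7 to 32 counts per library in C. sinensis, which limits its precision there.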

Other observations

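In C. grandis 10 µM replicate 3 other entries also lay above the other 2 libraries of the group. The ranking given here was made for this library only. Ranked by log2 CPM (with 1 CPM added) over the higher of the other 2 libraries of its group, a measure chosen after the data were seen, miR164b-3p came first of 170 entries at 2.71. It was followed by miR3951 (2.60), miR398 (2.23), which acts on copper superoxide dismutase transcripts, miR397b-3p (1.83), the 3p partner of a laccase regulator, and an entry with no family name (1.52). By the ratio of its highest to its next library, 6.57, it ranked 3rd of 170 in that group. There 5 entries had a highest library more than 4 times the next, and 3 of them, miR164b-3p included, had it in replicate 3. Whether this is more than its share was not tested. In C. grandis at 400 µM miR164b-3p was highest in replicate 2, at 3.31 times the next library, and ranked 4th of 170. In C. sinensis the ratio was 1.61 and 1.15 at 10 and 400 µM.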
